A study of Mus musculus with 4 samples.

Results

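The muscle fuel and oxygen handling genes described here are 7 genes taken by symbol from the deposited CPM table (CPM being the reads of a gene per 1000000 reads of its library): Ckm, Mb, Pygm, Cox6a2, Slc2a4, Pdk4 and Acsl1. All 7 were found among the 3760 genes of that table. The table comes from cultured myoblasts of adult C57BL/6 mouse skeletal muscle that the labels call twist2+. All 4 groups were infected with a retrovirus for 24 h and then kept for 24 h in growth medium. In 2 groups the virus carried GFP alone, and in the other two it carried Twist2-IRES-GFP, which encodes the basic helix-loop-helix factor Twist2 together with GFP. For each virus, 1 group was harvested in growth medium and the other after 5 days of differentiation. Growth medium was Ham's F10 with 20% fetal bovine serum, and differentiation medium was high-glucose DMEM with 2% horse serum. Differentiation therefore cannot be told apart from the change of base medium, glucose and serum, or from the 5 further days after infection. Each group is 1 library, so no difference below has a replicate check and no p-value is given. The labels do not say how many animals or cell isolates the cultures came from.

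Skeletal muscle meets sudden energy demand from creatine phosphate and from its own glycogen, and sustained demand by oxidizing pyruvate and fatty acids in mitochondria. Ckm encodes the muscle form of creatine kinase, which regenerates ATP from creatine phosphate, and Mb encodes myoglobin, the oxygen-binding haem protein of muscle fibres. Pygm encodes the muscle form of glycogen phosphorylase, Slc2a4 the insulin-responsive glucose transporter GLUT4, and Cox6a2 the heart and skeletal muscle form of a cytochrome c oxidase subunit. Pdk4 encodes a kinase that inactivates the pyruvate dehydrogenase complex and so limits glucose oxidation, and Acsl1 encodes a long-chain acyl-CoA synthetase, which activates fatty acids. Ckm, Mb, Pygm and Cox6a2 are textbook genes of the differentiated fibre, whereas Pdk4 and Acsl1 are also prominent in liver and fat.

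The libraries held between 9235281 and 12362290 reads, and the genes of the table took between 36.9% and 65.1% of them. A gene is in the table only if it reached 10 CPM in at least 2 libraries and differed at least 2-fold (on CPM + 1) from GFP growth medium in at least 1 of the authors' 3 comparisons, so shares of genes called refer to genes selected in this way. Twist2 itself stood at 0.103 and 0 CPM in the GFP libraries and at 1438 and 674 CPM in the Twist2 libraries, in growth and differentiation medium respectively, as the labels state. The single read in GFP growth medium and the 0 reads in GFP differentiation medium, which allow up to 0.399 CPM, mean that Twist2 RNA was hardly detected in the GFP cultures, although the cells are named for it. All 10 muscle fibre markers were in the table, and their summed level was 2076 and 75607 CPM in the GFP libraries and 780 and 12992 CPM in the Twist2 libraries, in the same order.

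The genes lie on 7 loci of GRCm38: Ckm on chromosome 7 (19404776 to 19422841, plus strand), Mb on chromosome 15 (77015487 to 77050670, minus), Pygm on chromosome 19 (6384399 to 6398459, plus), Cox6a2 on chromosome 7 (128205435 to 128206387, minus), Slc2a4 on chromosome 11 (69942539 to 69948188, minus), Pdk4 on chromosome 6 (5483351 to 5496309, minus) and Acsl1 on chromosome 8 (46471037 to 46536051, plus). Exons of 4 of them overlap a gene on the other strand in the annotation, by 451 bases for Ckm (A930016O22Rik), 412 and 64 bases for Mb (Gm49540 and Apol6), 70 bases for Cox6a2 (Itgad) and 1039 bases for Acsl1 (Gm45244). The strand setting of the counting is not given in the sources used here, so reads of those stretches cannot be assigned to a strand.

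RefSeq start regions (GRCm38.p6, 250 bases before to 50 bases after a start) were found for 5 of the 7 genes, in 8 windows, and not for Cox6a2 and Slc2a4. The sequences upstream of the starts are shown for 3 genes that were far higher after differentiation (Ckm, Mb and Pygm) and for Pdk4, which was not. Each runs 5′ to 3′ on the gene's strand and ends before the first annotated start within its window. Annotated starts of Ckm and Mb also lie further upstream. Capitals mark E-boxes (CANNTG, the site class bound by MyoD and myogenin) and, in Pygm, the longest run of bases shared with another of the genes. The Pdk4 window also holds 2 E-boxes, both past the end of the stretch shown.
Ckm (chr7:19410844-19411024, plus strand): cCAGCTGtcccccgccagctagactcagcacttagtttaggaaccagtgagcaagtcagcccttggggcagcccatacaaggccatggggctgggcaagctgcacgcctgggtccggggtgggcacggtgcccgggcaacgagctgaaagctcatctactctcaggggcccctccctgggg
Mb (chr15:77022788-77023037, minus strand): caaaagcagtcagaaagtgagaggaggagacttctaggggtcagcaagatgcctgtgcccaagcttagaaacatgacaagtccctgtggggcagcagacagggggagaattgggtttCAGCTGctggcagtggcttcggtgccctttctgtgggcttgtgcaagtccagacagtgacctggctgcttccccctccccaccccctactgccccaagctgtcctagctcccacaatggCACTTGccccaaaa
Pygm (chr19:6384158-6384398, plus strand): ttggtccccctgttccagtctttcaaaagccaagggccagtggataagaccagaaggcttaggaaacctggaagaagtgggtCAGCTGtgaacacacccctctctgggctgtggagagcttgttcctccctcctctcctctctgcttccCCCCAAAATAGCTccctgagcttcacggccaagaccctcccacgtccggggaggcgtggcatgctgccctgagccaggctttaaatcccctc
Pdk4 (chr6:5496310-5496528, minus strand): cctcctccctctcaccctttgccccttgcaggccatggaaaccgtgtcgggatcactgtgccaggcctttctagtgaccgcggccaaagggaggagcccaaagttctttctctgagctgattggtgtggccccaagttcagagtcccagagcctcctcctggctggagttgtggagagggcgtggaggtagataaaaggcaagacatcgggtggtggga

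The E-box form CAGCTG, which is contained in the wider CANNTG, was present in 5 of the 8 windows (Ckm, Mb, Pygm and Acsl1, not Pdk4) and in 16.3% of all 32851 RefSeq windows of the same length. The Mb windows of the starts 77022787 and 77022727 overlap and hold the same CAGCTG, so that site enters the window count more than once. Counted by gene, 4 of the 5 genes had it in at least 1 window, against 18.3% of 27025 genes. Mb and Acsl1 have several windows, which gives them more chances of a match. Any E-box was present in 7 of the 8 windows, the overlapping Mb windows included, and in 72.3% of all windows. The MEF2 site, the CArG box, AAGGTCA (the half-site of estrogen-related receptors), GTAAACA (the FOXO site) and TATAAA, searched on both strands, were absent from the 8 windows and present in 3.19%, 1.63%, 4.72%, 3.65% and 13.6% of all windows. CATTCC (MCAT) occurred once, upstream of the first Acsl1 start, and in 14.7% of windows, and that same Acsl1 window held 7 matches to GGGCGG (the GC box, present in 35.7% of windows). Mb and Pygm shared an identical run of 13 bases, chosen after the sequences were seen, which is shown in capitals with 8 bases on either side.
Mb (chr15:77022775-77022803, minus strand): ggcacttgCCCCAAAATAGCTgcccatgt
Pygm (chr19:6384299-6384327, plus strand): ctgcttccCCCCAAAATAGCTccctgagc

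The run begins 101 bases before the Pygm start. In Mb it begins 8 bases before the start at 77022787 and 68 bases before the start at 77022727. Of 27025 genes with a window, 2 carried it on either strand, Mb and Pygm themselves. These matches describe letters in the windows and were not tested for binding.

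The 7 genes fell into 3 patterns of level. The first pattern was near absence in growth medium and a high level after differentiation. Ckm had 2.46 CPM (24 reads) in GFP growth medium, 306 CPM (2823 reads) in GFP differentiation medium, 0.542 CPM (6 reads) in Twist2 growth medium and 98.7 CPM (1220 reads) in Twist2 differentiation medium. Mb had 1.85 CPM (18 reads), 467 CPM (4315 reads), 0.0903 CPM (1 read) and 168 CPM (2081 reads) in the same order. For both genes the differentiated libraries stood far above those in growth medium, and GFP stood above Twist2 in each medium. Cox6a2 had 1.74 CPM (17 reads), 227 CPM (2094 reads), 1.54 CPM (17 reads) and 63.7 CPM (788 reads). Slc2a4 had 0.411 CPM (4 reads), 78.7 CPM (727 reads), 0.361 CPM (4 reads) and 22.2 CPM (274 reads). These 2 genes had equal read numbers in the growth medium libraries, too few to show whether the viruses differed there. The counting intervals of Twist2 against GFP ran from 42.2% to 183% for Cox6a2 and from 16.4% to 473% for Slc2a4. After differentiation GFP stood above Twist2 for both.

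The second pattern was a clear level already in growth medium that was higher after differentiation. Pygm had 42.3 CPM (412 reads), 1547 CPM (14286 reads), 10.8 CPM (120 reads) and 679 CPM (8395 reads), again in the order GFP growth, GFP differentiation, Twist2 growth and Twist2 differentiation medium. Acsl1 had 15.5 CPM (151 reads), 74.0 CPM (683 reads), 8.76 CPM (97 reads) and 36.5 CPM (451 reads). The third pattern was that of Pdk4 alone, whose highest library was GFP growth medium. It had 237 CPM (2308 reads) there, 123 CPM (1137 reads) in GFP differentiation medium, 50.1 CPM (554 reads) in Twist2 growth medium and 51.9 CPM (642 reads) in Twist2 differentiation medium. Both GFP libraries of Pdk4 thus stood above both Twist2 libraries, and only the GFP pair also differed with medium, by less than 2-fold.

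**Figure D1:**
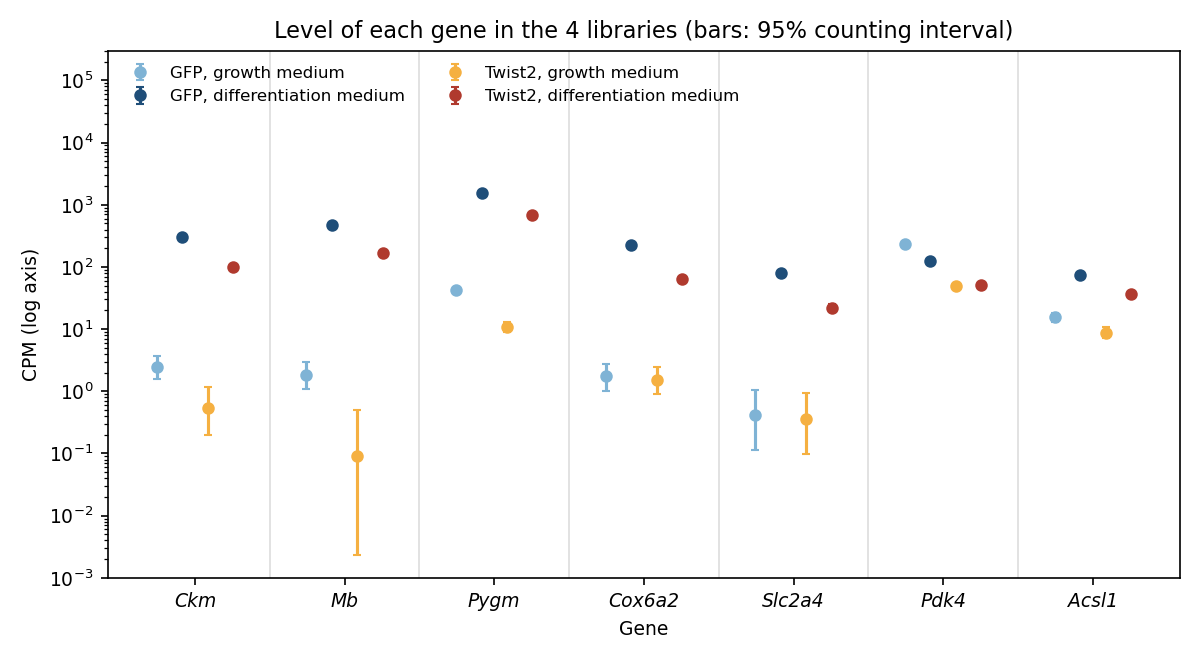
CPM (log axis) of each of the 7 genes in the 4 libraries, 1 point per library, with 95% counting intervals (exact Poisson). Ckm, Mb, Cox6a2 and Slc2a4 lie between 0.0903 and 2.46 CPM in growth medium and between 22.2 and 467 CPM in differentiation medium, and Pdk4 is highest in GFP growth medium, at 237 CPM.

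Levels were compared between genes per kilobase of annotated exon. In GFP differentiation medium the order was Pygm (481 CPM per kb), Cox6a2 (333), Mb (313), Ckm (105), Pdk4 (35.1), Slc2a4 (22.6) and Acsl1 (7.05 CPM per kb). The counting intervals of the neighbours Cox6a2 (319 to 348 CPM per kb) and Mb (304 to 323 CPM per kb) overlapped, and with the longest transcript as the length Mb (423 CPM per kb) stood above Cox6a2. In Twist2 differentiation medium the order was Pygm (211 CPM per kb), Mb (113), Cox6a2 (93.7), Ckm (33.9), Pdk4 (14.8), Slc2a4 (6.37) and Acsl1 (3.48 CPM per kb). The Acsl1 value depends on the length chosen, since its exons together span 10483 bases and its longest transcript 5676 bases.

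Differentiation of the GFP cells gives the response of these myoblasts without added Twist2. Mb, Ckm, Cox6a2, Slc2a4, Pygm and Acsl1 were higher after 5 days, and Pdk4 was lower by less than 2-fold. Calls used log2 of CPM + 1, on which ratios of low genes come out too small, and asked for 2-fold with 10 CPM or more in one of the libraries. By this measure 6 of the 7 genes were higher and 0 were lower. Ckm, Mb, Cox6a2 and Slc2a4 had at most 2.46 CPM in both growth medium libraries, so they entered the table only through the differentiation libraries. Reaching 10 CPM in both of those fixed their calls as higher in advance, with either virus. Of all 3694 genes with enough CPM, 32.6% were called higher and 40.9% lower. The median log2 ratio of the 7 genes was 5.82, against -0.38 over all genes. That median is the Slc2a4 value, so the selection had also fixed it past 2-fold. High ranks of these 4 genes among all genes carry the same limit.

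Myoglobin showed the largest ratio of the 7 genes, with a log2 ratio of 7.36 that ranked 18 of 3694. Without the pseudocount Mb was 253-fold higher, with a 95% counting interval of 160-fold to 427-fold. The intervals here are exact (Clopper-Pearson, conditional on the summed reads), and they cover counting error only, since reads were not tied to single molecules by identifiers. Ckm (log2 ratio 6.47) was 124-fold higher (83.2 to 194), and Cox6a2 (6.37) was 130-fold higher (81.0 to 224). For Slc2a4 (5.82) the 4 reads before differentiation left the fold between 74.6 and 706. Of the 6 genes that were higher, Pygm, with 412 reads before, had the narrowest interval, at 36.6-fold (33.2 to 40.4, log2 ratio 5.16). Acsl1 was 4.77-fold higher (4.0 to 5.73, log2 ratio 2.18). Pdk4 stood at 52.0% of its growth medium level (48.4% to 55.8%, log2 ratio -0.94), just short of 2-fold, and Acsl1 had the smallest ratio of the genes past it. Size factors (median of ratios) moved the Pdk4 log2 ratio to -0.59, and scaling by the reads that the table leaves out (outside-table scaling) moved it to -0.14.

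The same comparison in the Twist2 cells asks whether the genes still respond when Twist2 is forced. The same 6 genes were at least 2-fold higher and 0 were lower, against 26.5% of 3715 genes called higher and 24.5% lower, and the median log2 ratio was 4.67 (-0.22 over all genes). The calls of Ckm, Mb, Cox6a2 and Slc2a4 were again fixed by the selection of the table. So was a median past 2-fold, since it is the Cox6a2 value. Mb again had the largest log2 ratio of the 7 genes, 7.28, ranked 12 of 3715, but it rests on 1 read in growth medium, so that without the pseudocount the ratio lies anywhere between 334-fold and 73625-fold. Ckm (6.01) was 182-fold higher (83.4 to 497), and Pygm (5.84) was 62.6-fold higher (52.3 to 75.6). Cox6a2 (4.67) was 41.5-fold higher (25.8 to 71.6), Slc2a4 (4.09) 61.3-fold (23.7 to 227) and Acsl1 (1.94) 4.16-fold (3.34 to 5.24). Pdk4 was at 104% of its growth medium level (92.5% to 116%, log2 ratio 0.05), an interval that includes equality.

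**Figure D2:**
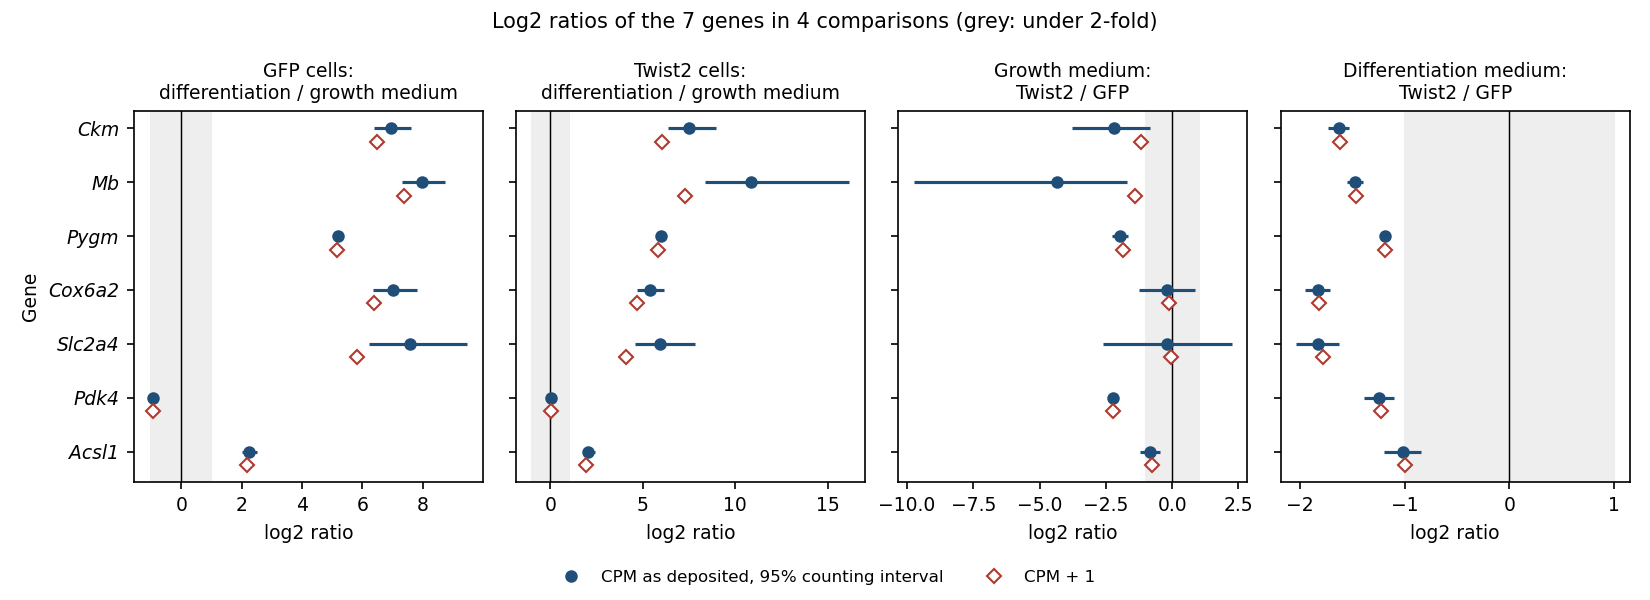
Log2 ratios of the 7 genes in the 4 comparisons. Circles with bars are ratios of CPM as deposited with 95% counting intervals, diamonds are ratios of CPM + 1, and the grey band marks differences under 2-fold. In differentiation medium all 7 genes lie to the left of 0, from -1.0 for Acsl1 to -1.81 for Cox6a2 on the CPM + 1 scale.

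In growth medium, the comparison asks what Twist2 does before differentiation. Pdk4 and Pygm were lower with Twist2, and 2 of the 7 genes were called lower and 0 higher. Only 3 of the 7 genes reached 10 CPM in the higher library, and of the 3514 genes that did 10.6% were called lower and 5.21% higher. Pdk4 stood at 21.1% of its GFP level (19.2% to 23.2%, log2 ratio -2.22), and it ranked 76 from the bottom. Pygm stood at 25.6% (20.7% to 31.5%, log2 ratio -1.87) and Acsl1 at 56.6% (43.4% to 73.5%, log2 ratio -0.76). The other four genes had few reads. Ckm, with 6 against 24 reads, was at 22.0% (7.36% to 55.3%) and Mb, with 1 against 18 reads, at 4.89% (0.117% to 31.0%). For Cox6a2, with 17 reads in each library, the interval ran from 42.2% to 183%, which still holds a 2-fold lower level. For Slc2a4, with 4 reads in each, it ran from 16.4% to 473%, so a 2-fold difference in either direction was not detectable at this depth. The summed muscle fibre markers stood at 37.6% of their GFP level in growth medium, a sum that is mostly Des, and the other 9 markers together at 9.49% (575 and 54.6 CPM). Their part in these values was not tested.

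After differentiation all 7 genes were lower in Twist2 than in GFP cells, and 6 of the 7 were at least 2-fold lower on the CPM + 1 scale. Of 3437 genes, 25.2% were called lower and 25.4% higher, and the median log2 ratio was -1.47 for the 7 genes against -0.19 over all genes. Cox6a2 stood at 28.1% of its GFP level (25.9% to 30.5%, log2 ratio -1.81) and Slc2a4 at 28.2% (24.4% to 32.4%, -1.78). Ckm was at 32.3% (30.2% to 34.5%, -1.62), Mb at 36.0% (34.2% to 38.0%, -1.47), Pdk4 at 42.2% (38.2% to 46.5%, -1.23) and Pygm at 43.9% (42.7% to 45.1%, -1.19). Acsl1, at 49.3% (43.7% to 55.6%, log2 ratio -1.0), lay just short of 2-fold with the pseudocount and just past it without. With median-of-ratios size factors, or with libraries scaled to the reads outside the table, all 7 genes were at least 2-fold lower, and under the second scaling 44.4% of all genes were called lower, with the median of all genes shifted by -0.57.

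Muscle fibre markers were also lower in the Twist2 differentiation medium library. The 10 markers stood at 7.65% (Myh8) to 45.1% (Des) of their GFP level, with a median of 18.8%, and the 7 genes at 28.1% to 49.3%, with a median of 36.0%. The sum of the 10 markers was 17.2% of that in GFP cells. In the other direction, the 4 fibro-adipogenic and fibroblast markers in the table (of 8 sought) summed to 732 CPM in GFP and 8907 CPM in Twist2 differentiation medium. Nearly all of that sum was Col3a1, at 559 and 8750 CPM. Col3a1 and Dcn (1.19 and 64.6 CPM) were called higher with Twist2. Tcf4 went the other way (172 and 89.1 CPM, log2 ratio -0.94), and Ly6a had 0 and 3.32 CPM, under the minimum. The 6 listed myoblast markers summed to 13107 and 7929 CPM, mostly Des and Itga7. Of these 6, 2 were called higher with Twist2 (Pax7 and Vcam1) and 1 lower (Des), with a median log2 ratio of 0.19. The 3 listed pericyte and smooth muscle markers summed to 8042 and 5184 CPM, nearly all Acta2. The others, Tagln (94.7 and 129 CPM) and Rgs5 (0.108 and 4.69 CPM), stood higher with Twist2. Their list had a median log2 ratio of 0.44, with 0 genes called higher and 0 lower. Of 12 adipocyte markers only Lpl was in the table, at 10.4 and 20.6 CPM, and none of the endothelial, macrophage and blood, erythroid or Schwann cell markers was. The table also leaves out expressed genes that differed less than 2-fold from GFP growth medium. A missing marker therefore does not show that its cell type was absent. The part of the marker differences in the values of the 7 genes was not tested, and in bulk RNA fewer muscle cells and less RNA of a gene per cell cannot be told apart. The length of all annotated exons of a gene together also went with this comparison. The median log2 ratio of all genes was 0.34 in the shortest of 5 length groups, which holds Ckm, Mb and Cox6a2, and -0.78 in the longest, which holds Acsl1.

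**Figure D3:**
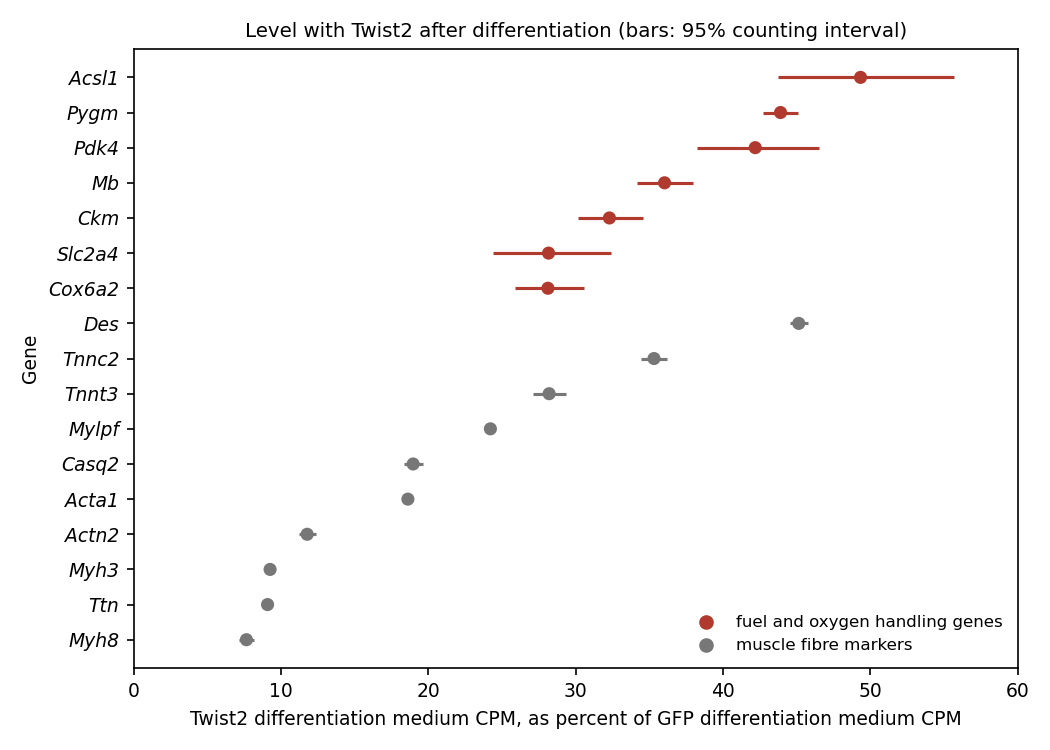
Level in Twist2 differentiation medium as a percent of GFP differentiation medium, 1 library each, with 95% counting intervals, for the 7 genes (red) and the 10 muscle fibre markers (grey). The genes lie between 28.1% and 49.3% and the markers between 7.65% and 45.1%, so the ranges overlap.

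The difference of the 2 responses (the Twist2 log2 ratio less the GFP one) was most negative for 2 genes. It was -1.70 for Cox6a2 and -1.73 for Slc2a4, so 2 of the 7 genes had a response at least 1 log2 unit smaller with Twist2, against 12.6% of all 3760 genes, and 0 had one at least 1 unit larger (25.5% of all genes). Without the pseudocount, and with an interval combined from both exact intervals, the difference was -1.65 for Cox6a2 (-2.69 to -0.61), while for Slc2a4 the interval included 0 (-1.64, -3.97 to 0.68). Pdk4 (1.0, 0.80 to 1.19) and Pygm (0.78, 0.48 to 1.08) had positive differences, and both had been called lower with Twist2 in growth medium. The same growth medium libraries enter both results, so a lower Twist2 level there by itself makes the difference larger. For Acsl1 the interval included 0 (-0.20, -0.61 to 0.22). The sign for Ckm and Mb depended on the pseudocount, with -0.45 and -0.08 on the CPM + 1 scale but 0.55 (-0.74 to 2.11) and 2.88 (0.29 to 8.23) without it.

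Genes of the same pathways were taken from lists that also hold the 7 genes. Of all genes, 32.6% were called higher and 40.9% lower in GFP differentiation. With Twist2, 25.4% were higher and 25.2% lower in differentiation medium, and 5.21% and 10.6% in growth medium. Outside-table scaling changed the differentiation medium shares to 14.6% and 44.4%. Counts of listed genes near these shares do not set a list apart. Among the other creatine genes in the table (5 listed, from a list of 12 names that includes Ckm), 4 were at least 2-fold higher in GFP differentiation and 1 was at least 2-fold lower with Twist2 in differentiation medium. Ckb, the brain form of creatine kinase, had 54.6, 878, 56.8 and 734 CPM in the library order used above. Per kilobase of exon Ckb exceeded Ckm in every library, at 303 against 105 CPM per kb in GFP and 254 against 33.9 CPM per kb in Twist2 differentiation medium, also with the longest transcript as the length. Its level after differentiation differed little between viruses (log2 ratio -0.26), where Ckm had -1.62. Gatm, the first enzyme of creatine synthesis, was lower with Twist2 in growth medium (log2 ratio -2.27, 108 and 21.7 CPM) and in differentiation medium (-1.09, 275 and 129 CPM), while Gamt, the second enzyme, had 129 and 244 CPM in differentiation medium (0.92).

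Of the 3 oxygen-related genes listed beside Mb, Hif1an, which encodes the asparagine hydroxylase that inhibits HIF-1, was higher after GFP differentiation (2.41) and lower with Twist2 in differentiation medium (-1.38). Egln3, a prolyl hydroxylase of HIF, had log2 ratios of 1.52 and -0.57, and Hif1a itself -1.35 and 0.06 in these comparisons. In the glycogen list, 9 of 12 other genes were at least 2-fold higher and 2 lower in GFP differentiation (median 1.66). In differentiation medium 6 of the 12 were lower with Twist2 and 2 higher (median -1.07). Ppp1r3a, the muscle subunit that brings protein phosphatase 1 to glycogen, had the lowest ratio (-3.05), from 140 CPM with GFP to 16.0 CPM with Twist2. Gys1, glycogen synthase of muscle, followed with -1.63. Pygb, the brain form of the phosphorylase, went against Pygm, with 57.5, 20.8, 84.2 and 66.7 CPM. Per kilobase, Pygm made up 52.4%, 99.1%, 16.1% and 93.8% of the summed Pygm and Pygb level in the 4 libraries.

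Of 7 listed uptake genes other than Slc2a4, 5 were higher in GFP differentiation, with Slc2a6 (3.94), a glucose transporter family member, and Sort1 (3.29), the sorting receptor sortilin, in front. In differentiation medium 2 were lower and 1 was higher with Twist2, against 25.2% and 25.4% of all genes. Lnpep, the aminopeptidase that travels with GLUT4 vesicles, was lowest there (-2.55, 249 and 41.7 CPM). With outside-table scaling 7 of the 8 genes, Slc2a4 included, were lower there and 0 higher. Slc2a1 and Slc2a3 were not analysed here. Of 10 glycolysis genes, 6 were higher and 4 lower in GFP differentiation, and 5 were lower and 1 higher with Twist2 in differentiation medium. The 4 lower genes became 2 with size factors and 1 with outside-table scaling. Hk2 (-1.55), which encodes a hexokinase, Pfkm (-1.38), muscle phosphofructokinase, and Pgam2 (-1.34), muscle phosphoglycerate mutase, were on the lower side, and Gpd2 (1.62), the mitochondrial glycerol phosphate dehydrogenase, on the higher.

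Pdk4 had the lowest GFP differentiation ratio of the pyruvate dehydrogenase list. Of the 9 other genes, 8 were at least 2-fold higher in GFP differentiation (log2 ratios up to 1.86), where Pdk4 had -0.94 and Pdk1 -0.03. Pdk2, a kinase of the same family, had 32.8, 80.8, 29.8 and 60.3 CPM, and Pdk1 had 59.1, 57.9, 52.6 and 26.0 CPM. Pdk4 exceeded Pdk2 per kilobase of exon in GFP growth medium (67.5 against 10.4 CPM per kb) but not in Twist2 differentiation medium (14.8 against 19.1 CPM per kb). With Twist2 in growth medium, 0 of the 9 other genes passed 2-fold. In differentiation medium 2 were lower, against 25.2% of all genes. These were Pdk1 (-1.12) and Pdha1 (-1.11), a catalytic subunit of the complex. With outside-table scaling 9 of the 10 genes, Pdk4 included, were lower there.

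Of 17 fatty acid genes listed beside Acsl1, 9 were higher and 6 lower in GFP differentiation (median 1.08). In differentiation medium 4 were lower and 5 higher with Twist2 (median 0.16), near the 25.2% and 25.4% of all genes. Counted with Acsl1, the 10 higher and 6 lower of GFP differentiation became 12 and 4 with size factors and 12 and 2 with outside-table scaling, which also gave 7 lower and 3 higher with Twist2. The acyl-CoA synthetases differed among themselves. Acsl3 had 92.9, 722, 32.2 and 264 CPM, Acsl4 338, 649, 118 and 138 CPM, and Acsl6 4.82, 92.9, 4.70 and 36.0 CPM. Acsl5 had 77.2, 36.0, 94.96 and 52.9 CPM and was the 1 gene of the 5 listed that was lower after GFP differentiation. With Twist2 in differentiation medium the log2 ratios were -1.45 for Acsl3, -2.22 for Acsl4, -1.34 for Acsl6 and 0.54 for Acsl5. The highest ratio of the list was that of Fabp5, a fatty acid binding protein, at 3.46 CPM with GFP but 60.7 CPM with Twist2 after differentiation (3.79). Cpt1c (2.15), of the carnitine palmitoyltransferase family, and Slc27a1 (1.86), a fatty acid transport protein, came next.

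All 6 cytochrome c oxidase genes listed beside Cox6a2 were at least 2-fold higher in GFP differentiation, but with a pseudocount of 5 CPM only 4 of the 7 genes, Cox6a2 included, were. Cox8b, like Cox6a2 a subunit form of heart and skeletal muscle, had 1.13, 105, 0.181 and 72.0 CPM. With Twist2 in differentiation medium Cox8b had a log2 ratio of -0.53, where Cox6a2 had -1.81. Sco1, which helps to insert copper into the enzyme, was the 1 other listed gene past 2-fold there (-1.56), and 5 of the 7 were lower with outside-table scaling. Cox6a1, the widely expressed form of the subunit, was not analysed here. Among 17 listed regulators of fuel use and muscle genes, 6 were lower and 0 higher with Twist2 in differentiation medium. Mef2c, a muscle transcription factor, had the lowest ratio (-4.59, 264 and 10.03 CPM), followed by 2 subunits of the AMP-activated protein kinase, Prkag3 (-3.06, 146 and 16.7 CPM) and Prkaa2 (-2.90, 80.2 and 9.87 CPM), and by Myog (-1.51). Myod1 had 810 and 1068 CPM there (0.40).

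**Figure D4:**
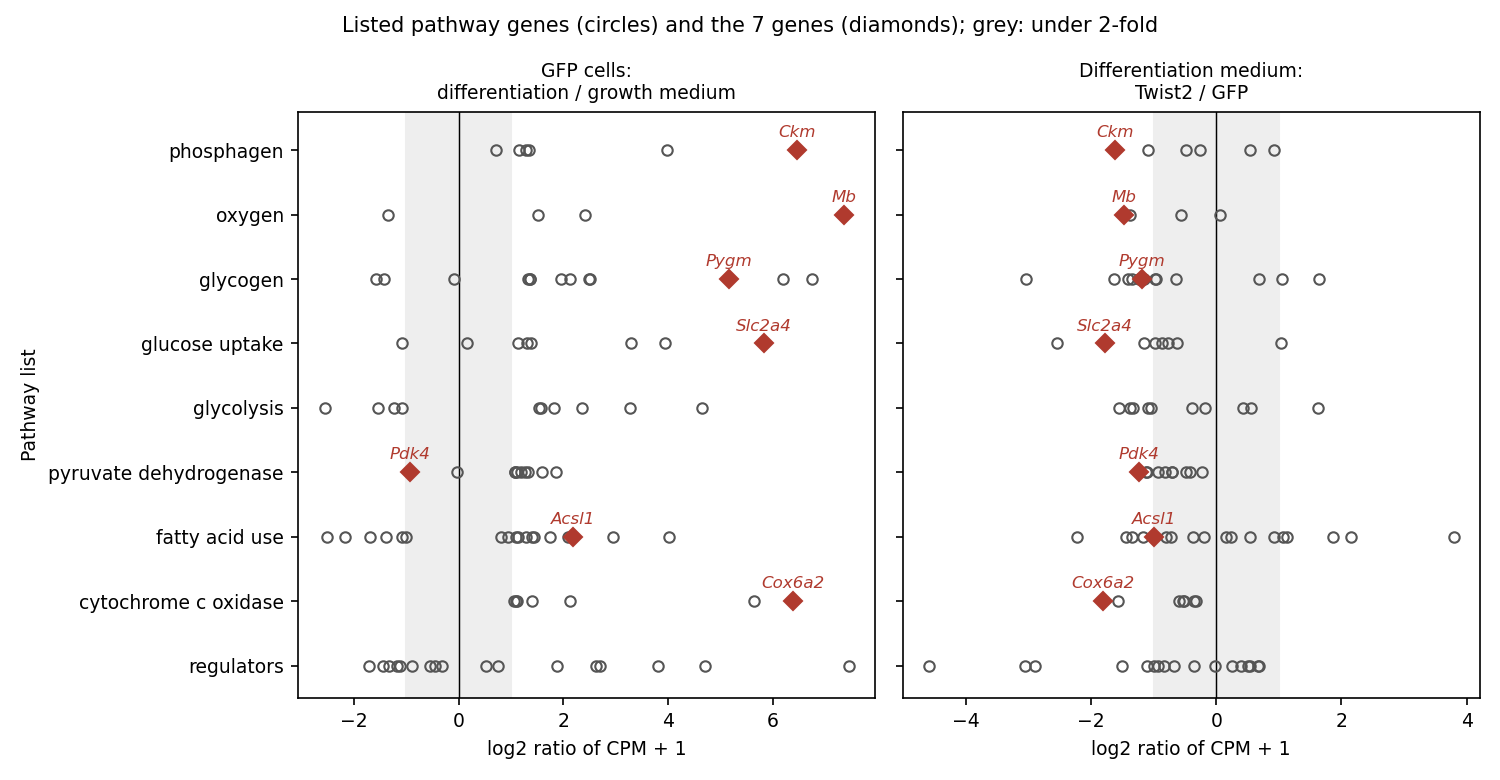
Log2 ratios of CPM + 1 for the listed genes of 9 pathway lists (circles) and the 7 genes (diamonds), for GFP differentiation (left) and Twist2 against GFP in differentiation medium (right). In the right panel Ckm, Mb, Pdk4 and Cox6a2 are the lowest of their lists, while lower genes stand beside Pygm, Slc2a4 and Acsl1, and fatty acid genes spread from -2.22 to 3.79.

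The genes of the table with the most similar profile were found by the Euclidean distance between log2(CPM + 1) values over the 4 libraries, each gene centred on its own mean, among 3753 other genes. For Ckm these were Srl (0.58), Tm6sf1 (0.63) and Pgm5 (0.73), and for Mb they were Tnnc1 (0.51), Cacna1s (0.56) and Actc1 (0.80). Pygm was closest to Pgam2 (0.52), which encodes a glycolytic enzyme of muscle, then to Acta2 (0.67) and Fam78a (0.69). Cox6a2 and Slc2a4 shared 2 of their 3 nearest genes, B3galt2 (0.55 and 0.26) and Dhrs7c (0.48 for both), beside Abra (0.23) for Cox6a2 and Abcc9 (0.40) for Slc2a4. Among the 7 genes this pair was also the closest, at 0.57. Pdk4 lay nearest to Acvr2a (0.28), which was likewise highest in GFP growth medium. Acsl1 lay nearest to Amigo1 (0.10), Mboat2 (0.13) and Ehbp1l1 (0.17). With 4 libraries such distances describe the profiles and nothing further.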

How the data were processed

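RNA-seq of 4 libraries, 1 per group, was used. The authors deposited 1 table with a CPM value per gene and library and 3 columns of log2 ratios against GFP growth medium, per the file headers; the log2 ratios matched log2 of CPM + 1 within 1.27e-11 and were used only for that check. A further column, a flag, was not used. The submitters' processing notes list TopHat2 2.0.0, DESeq2 1.6.3 and GRCm38 (mm10) without roles. How genes were counted, with which annotation and strand setting, is not given in the sources used here.

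All CPM values were whole multiples of 1 read within 0.001 reads, which gave reads and library totals (9744075, 9235281, 11068073 and 12362290 for GFP growth, GFP differentiation, Twist2 growth and Twist2 differentiation medium). Log2 ratios carry a pseudocount of 1 CPM. A gene was called at 2-fold if its higher library reached 10 CPM. Counting intervals are 95%, exact Poisson for levels and Clopper-Pearson for ratios (SciPy 1.17.1, Python 3.11.15); that of the difference of responses combines the distances to the bounds of both ratios in quadrature. No count model was fitted and no test was run, because no group has replicates. Exon lengths and positions are from GENCODE M21, which matched 3609 symbols directly and 140 through an older symbol. Lengths are the union of all exons. The calculation was tested on simulated data.

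The 7 genes, the 9 pathway lists and the marker lists were chosen with earlier results of these data known. Named genes are the 7 genes, their listed paralogs, up to 4 other genes per list with the largest ratios plus any 2 that go 2-fold the other way, the 3 nearest profiles, and Twist2, Myod1, Myog and Myh3. Pgam1, Col3a1, Dcn, Tcf4, Ly6a, Lpl, Myh8, Des, Itga7, Pax7, Vcam1, Tagln, Rgs5 and Acta2 as a marker were named after their values were seen. Some genes that this rule names are not reported here. Alternatives were 2 other pseudocounts, 3 other scalings, no minimum CPM and another length.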

Additional observations from a re-analysis of the deposited data

Results flagged for a closer look

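Pdk4 had opposite signs in the differentiation comparison of the 2 viruses, with a log2 ratio of -0.94 in GFP cells and 0.05 in Twist2 cells, a difference of 0.99 on the CPM + 1 scale. Neither ratio passed 2-fold, the interval in Twist2 cells (92.5% to 116% of the growth medium level) included equality, and with 1 library per group the difference was not tested against replicate spread. With libraries scaled to reads outside the table, the difference was 0.45.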

How the results depend on the processing

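The counts of genes called in both differentiation comparisons (6 higher, 0 lower in each) were the same under all 6 alternatives, namely pseudocounts of 0.1 and 5 CPM, median-of-ratios size factors, centring on the median, scaling to the reads outside the table and no minimum CPM. For Ckm, Mb, Cox6a2 and Slc2a4 the selection of the table had fixed the call, so this sameness adds little for them. In growth medium 4 of the 7 genes were lower without a minimum CPM, since Ckm and Mb then count. For the difference of the responses, 1 gene, Mb (1.88), was higher with a pseudocount of 0.1 CPM, and 4 were lower with 5 CPM, Ckm (-1.15) and Mb (-1.02) being added. With the longest transcript as the length, levels in GFP differentiation medium were 111 (Ckm), 423 (Mb), 538 (Pygm), 24.7 (Slc2a4) and 13.0 (Acsl1) CPM per kb. Cox6a2 and Slc2a4 in growth medium were near 0 under every setting, from -0.17 to 0.04 and from -0.15 to 0.05. With 17 and 4 reads in each library the settings could hardly move them, so this does not show equal levels. Of all called genes, 44.4% were higher in GFP differentiation as deposited but 57.0%, 59.1% and 68.9% with size factors, centring and outside-table scaling. In Twist2 differentiation 51.9% were higher, and 64.6% and 66.2% with the latter pair. In growth medium 32.97% became 52.0% with size factors, and in differentiation medium 50.2% became 24.8% outside the table. Outside-table scaling moved the all-gene median by 0.78 and 0.25 in the GFP and Twist2 differentiation comparisons, and size factors moved it by 0.34 in GFP differentiation and 0.23 in growth medium. Scaling to reads outside the table also left 0 of the 2 lower glycogen genes and 0 of the 1 lower oxygen gene in GFP differentiation. The fibre marker sum without Des was added after seeing the data, and in differentiation medium it was 14.6% of GFP. Depth limits the growth medium values of Ckm, Mb, Cox6a2 and Slc2a4, which rest on 1 to 24 reads. No paired analysis was possible because each group has 1 library.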

Other observations

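Muscle and general forms of 2 glycolytic enzymes went in opposite directions. Pgam2, muscle phosphoglycerate mutase, had 7.80 CPM in GFP growth, 219 CPM in GFP differentiation, 1.08 CPM in Twist2 growth and 86.4 CPM in Twist2 differentiation medium, while Pgam1, its general form, had 75.3, 31.4, 89.5 and 46.4 CPM. Pfkm, muscle phosphofructokinase, had 79.4, 778, 68.5 and 299 CPM, while Pfkl, the liver form, had 266, 90.7, 271 and 122 CPM. In each pair the general form was lower after differentiation with both viruses. Mpc1, which encodes a subunit of the mitochondrial pyruvate carrier, had 6.88, 27.6, 6.69 and 16.5 CPM in the same order.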
